A study of Mus musculus with 63 samples.

Results

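A set of 10 Toll-like receptor genes was followed in mouse peritoneal macrophages through 63 RNA-seq libraries of R1441C-LRRK2 knock-in and wild-type mice. The 10 genes were Tlr1, Tlr2, Tlr3, Tlr4, Tlr6, Tlr7, Tlr8, Tlr9, Tlr12 and Tlr13, out of 56748 genes in the count table. Their identifiers in that order are ENSMUSG00000044827, ENSMUSG00000027995, ENSMUSG00000031639, ENSMUSG00000039005, ENSMUSG00000051498, ENSMUSG00000044583, ENSMUSG00000040522, ENSMUSG00000045322, ENSMUSG00000062545 and ENSMUSG00000033777. They were chosen by name, each symbol was matched to the Ensembl identifier of the table, and all 10 passed the filter on low counts that left 22147 genes for testing. R1441C is a change in the GTPase domain of leucine-rich repeat kinase 2 that is linked to inherited Parkinson's disease, and the knock-in mice carry it in their own Lrrk2 gene. The controls were B6 mice. All mice received 3% thioglycollate broth into the peritoneum 72 h before the cells were collected, which recruits macrophages, and a slow-release form of the pain reliever buprenorphine, and the adherent cells were cultured with 100 U of interferon-gamma (IFN-γ) or with vehicle for 18 h. The labels give an age of 2 to 3 months (young) or 18 to 21 months (old). There were 3 young untreated, 3 young IFN-γ, 5 old untreated and 5 old IFN-γ libraries of wild-type females. In that order, wild-type males gave 3, 5, 3 and 5 libraries, females of the knock-in line 5, 2, 5 and 5, and its males 3, 3, 3 and 5. The 3 knock-in old untreated males carry IFN-γ in 1 treatment field of their labels and untreated in their titles and descriptions, which were followed. The study's stated aim was to follow effects of the R1441C change on myeloid cells by sex and age. Nothing in the labels says whether libraries of a group came from separate animals, so the p-values measure the spread between these libraries, which may be technical.

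Toll-like receptors recognise molecules of microbes and of damaged cells. Tlr1, Tlr2, Tlr4 and Tlr6 sit at the cell surface and bind lipopeptides and lipopolysaccharide, with Tlr1 and Tlr6 acting as partners of Tlr2. Tlr3, Tlr7, Tlr8, Tlr9, Tlr12 and Tlr13 act in endosomes, where the chaperone Unc93b1 brings them: Tlr3 binds double-stranded RNA, Tlr7 and Tlr8 bind RNA or its breakdown products, Tlr9 binds DNA with unmethylated CpG, Tlr13 binds bacterial ribosomal RNA, and Tlr12 binds profilin of Apicomplexa together with Tlr11. All of these signal through the adaptor Myd88 except Tlr3, which uses Ticam1, and Tlr4 uses both. IFN-γ is known as a priming signal that changes how macrophages answer Toll-like receptor ligands.

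The libraries held between 73.6 M and 106.6 M counts (median 98.2 M). The response genes of IFN-γ differed far more by the label for age than by the one for treatment. Levels of 1 gene are given as CPM, its count scaled to the size of the library. Gbp2, a guanylate-binding protein induced by IFN-γ, had 13.5 to 883 CPM where the label was young (27 libraries) and 4372 to 7510 CPM where it was old (36 libraries), and Cxcl9, Ciita and Nos2 likewise had no overlap. Of all tested genes, 6.62% had no overlap between the age labels. By the age label the 4 genes differed by 3.91 to 5.31 on the log2 scale in wild-type. By the IFN-γ label Gbp2 (0.91, adjusted p = 0.011) and Ciita (0.95, adjusted p = 6.36e-05) were called in wild-type and none of the 4 in knock-in (-0.17 to 0.60, adjusted p from 0.55 to 0.889). Their wild-type group means were 2790 CPM of Gbp2 with the IFN-γ label against 3329 CPM untreated, and 239 against 235 CPM of Ciita. The fit averages the log2 changes of the strata. For Gbp2 in wild-type these were 3.13 and 1.27 in young females and males, and -0.45 and -0.30 in old ones. In wild-type young females Gbp2 (3.13), Cxcl9 (3.58) and Ciita (2.92) were called higher by the IFN-γ label, the single stratum of 8 with a call among the 4 genes. Which culture or animal each label describes was therefore in doubt, and every comparison below is between libraries as labelled. Macrophage markers summed to 18781 CPM or more in each library. For 12 B cell marker genes the summed CPM was 123 to 233 under the untreated label and 192 to 3102 under the IFN-γ label. Wild-type young IFN-γ female 1 and wild-type old IFN-γ female 2 stood apart with 3102 and 2222 CPM of these markers, against 831 CPM or less in the other libraries, and with 1321 and 549 CPM of 5 large peritoneal macrophage markers. The female transcript Xist reached only 1.69 and 1.55 CPM in females 4 and 5 of the knock-in old IFN-γ group, against up to 562 CPM in females and 14.7 CPM in males, which goes against their sex label. Their Ddx3y, a Y-linked gene, at 0.624 and 0.601 CPM, was within the range of the females (0 to 8.93 CPM) and below that of the males (33.9 to 67.9 CPM). Lrrk2 itself was not called between the genotypes (log2 change -0.26 ± 0.10, SE, adjusted p = 0.166), and counts cannot show the base change. Receptor results that rest on these 4 libraries are given with and without them.

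Sequence upstream of the members that differed most by the age label is shown here, since Tlr12 and Tlr9 were higher together and Tlr8 and Tlr13 were lower together. The 250 bases before the annotated start were taken from RefSeq on GRCm38.p6, an earlier build than the GRCm39 of the counts, and 8 of the 10 genes had an entry, with none for Tlr4 and Tlr7. Capitals mark every match, on either strand, to the interferon-stimulated response element (GAAA, any pair of bases, GAAA), the NF-kB consensus, or GGAAGT (a core bound by Ets factors such as PU.1, a master regulator of macrophages). The Tlr12 window, at chr4:128618620-128618869 on the minus strand, held GGAAGT at 186 and 63 bases before the start.
Tlr12: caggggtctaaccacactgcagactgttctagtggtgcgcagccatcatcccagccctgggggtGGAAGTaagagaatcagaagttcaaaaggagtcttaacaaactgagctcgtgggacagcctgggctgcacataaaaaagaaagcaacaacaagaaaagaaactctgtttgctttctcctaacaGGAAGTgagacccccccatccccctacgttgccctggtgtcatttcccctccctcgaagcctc
The Tlr9 window, at chr9:106222348-106222597 on the plus strand, held no match to these letters.
Tlr9: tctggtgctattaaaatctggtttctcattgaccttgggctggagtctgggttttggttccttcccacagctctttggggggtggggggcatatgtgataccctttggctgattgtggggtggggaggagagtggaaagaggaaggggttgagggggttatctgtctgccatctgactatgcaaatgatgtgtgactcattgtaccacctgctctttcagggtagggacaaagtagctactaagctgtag
The Tlr2 window, at chr3:83841609-83841858 on the minus strand, held an overlapping pair of matches to the NF-kB consensus at 173 and 172 bases before the start, and GGAAGT at 30 bases.
Tlr2: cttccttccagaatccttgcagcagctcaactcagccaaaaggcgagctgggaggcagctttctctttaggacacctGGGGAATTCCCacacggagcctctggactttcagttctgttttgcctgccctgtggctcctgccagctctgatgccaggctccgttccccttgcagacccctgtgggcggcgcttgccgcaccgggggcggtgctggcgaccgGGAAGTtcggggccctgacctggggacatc
The Tlr8 window, at chrX:167264330-167264579 on the minus strand, held no match.
Tlr8: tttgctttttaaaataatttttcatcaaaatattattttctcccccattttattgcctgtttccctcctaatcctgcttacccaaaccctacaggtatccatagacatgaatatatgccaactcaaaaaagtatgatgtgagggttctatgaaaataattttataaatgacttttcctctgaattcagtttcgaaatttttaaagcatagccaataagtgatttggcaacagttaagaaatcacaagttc
The Tlr13 window, at chrX:106143025-106143274 on the plus strand, held no match.
Tlr13: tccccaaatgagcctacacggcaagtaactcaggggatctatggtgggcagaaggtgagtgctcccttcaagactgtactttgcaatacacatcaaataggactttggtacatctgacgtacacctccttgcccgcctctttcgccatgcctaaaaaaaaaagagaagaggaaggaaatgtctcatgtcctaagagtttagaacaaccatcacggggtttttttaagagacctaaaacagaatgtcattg
Among 32851 RefSeq windows of this length, the interferon-stimulated response element was in 2.98%, the NF-kB consensus in 3.9% and GGAAGT in 19.7%. Of the other members, Tlr6 held the interferon-stimulated response element and Tlr3 held the NF-kB consensus, while Tlr1 and Tlr6 held GGAAGT. A match describes letters and does not show binding.

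Compared per length, as the deposited FPKM values allow, Tlr13 had the highest mean level over all libraries and Tlr3 the lowest. The order differed between the age labels: with the young label Tlr12 (0.835 FPKM) was below Tlr3 (1.75 FPKM), and with the old label Tlr8 (16.9 FPKM) was below Tlr2 (33.1 FPKM) and Tlr1 (23.3 FPKM). Over all 63 libraries the mean was 83.0 ± 32.5 FPKM (SD) for Tlr13, 30.1 ± 17.2 for Tlr8, 27.2 ± 14.5 for Tlr2, 21.3 ± 9.09 for Tlr7 and 21.2 ± 3.24 for Tlr1. Tlr4 followed at 14.1 ± 2.74 FPKM, Tlr6 at 11.3 ± 1.71, Tlr12 at 9.08 ± 7.82, Tlr9 at 8.10 ± 4.99 and Tlr3 at 2.11 ± 0.532. In this order Tlr8, Tlr2, Tlr7 and Tlr1 each differed from the next by less than the larger SD of the pair, and so did Tlr6, Tlr12 and Tlr9, while Tlr13 stood above Tlr8, Tlr1 above Tlr4, Tlr4 above Tlr6 and Tlr9 above Tlr3 by more. Of the 2 mouse receptors outside the set, Tlr5 was at 0.0782 ± 0.0531 FPKM and Tlr11 at 1.55 ± 1.31.

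The make-up of the set differed between the age labels. In libraries labelled young, Tlr13 made up 44.6 ± 4.70% (SD, n = 27) of the summed FPKM of the 10 genes, Tlr8 18.2 ± 2.22% and Tlr7 11.6 ± 1.14%. In libraries labelled old these shares were 28.4 ± 4.46% (SD, n = 36), 8.06 ± 2.28% and 7.05 ± 1.04%. Tlr12 went from 0.312 ± 0.279% to 7.80 ± 2.70% and Tlr9 from 1.09 ± 0.580% to 6.02 ± 1.25%. The summed FPKM of Tlr7, Tlr8 and Tlr13, the receptors for single-stranded RNA or its products, all on the X chromosome, was 139.5 to 240.3 in libraries labelled young and 45.7 to 129.4 in those labelled old. These sums did not overlap, while each of the 3 genes alone did, and 6.62% of all single genes had no overlap. The 3 are the members called lower with the old label below, so the sum is no separate result. The sum of all 10 genes was 193 to 319 FPKM with the young label and 148 to 256 with the old label, which do overlap.

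**Figure D1:**
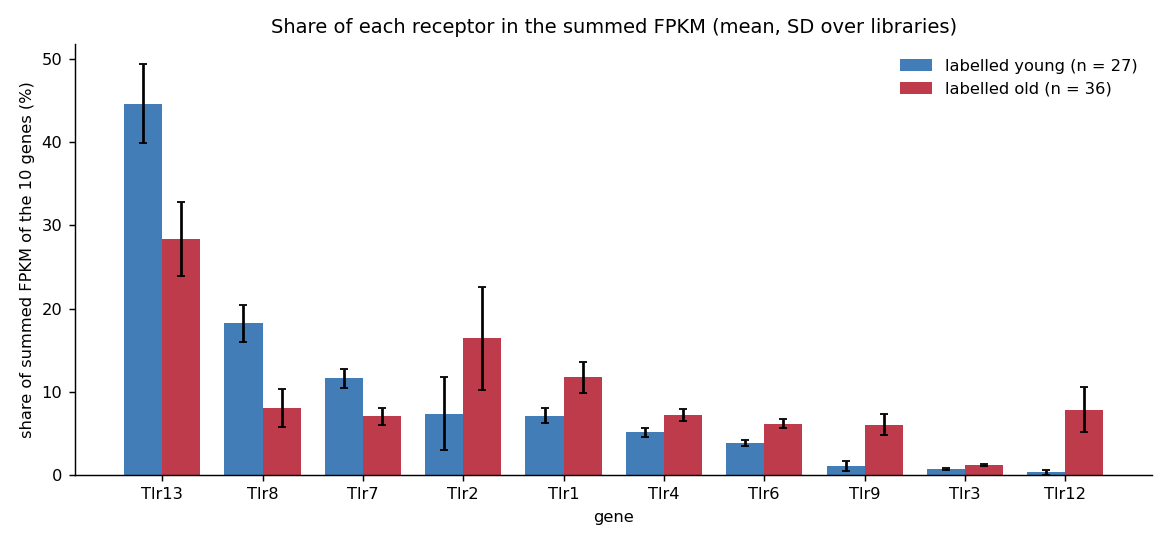
Share of each receptor in the summed FPKM of the 10 genes (percent, bars from 0), as the mean over libraries labelled young (blue, n = 27) and old (red, n = 36) with the SD as error bar. Tlr13 held 44.6% with the young label and 28.4% with the old label, while Tlr12 held 0.312% and 7.80%.

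By the age label, 9 of the 10 receptors differed in wild-type libraries and the same 9 in knock-in libraries. Tlr12, Tlr9, Tlr2, Tlr3, Tlr6 and Tlr1 were higher in libraries labelled old, and Tlr8, Tlr7 and Tlr13 were lower, in both genotypes. In wild-type, 62.0% of all tested genes were called in this comparison, 28.3% of the genes tested being higher and 33.7% lower. In knock-in, 60.7% were called, 28.1% higher and 32.6% lower. The count of 9 in 10 is therefore read against a comparison in which most genes were called. The median log2 change of the 10 genes was 0.32 in wild-type and 0.37 in knock-in, against -0.08 and -0.05 over all tested genes.

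Tlr12 differed most in size. In libraries labelled young it was at 0.172 CPM in the lowest library, 2.13 CPM in the median and 10.8 CPM in the highest, and in libraries labelled old at 6.03, 48.4 and 74.5 CPM. A single library labelled old lay below the highest one labelled young: wild-type old IFN-γ female 2, at 6.03 CPM, is one of the 2 libraries high in B cell markers, and the next lowest library labelled old was at 26.5 CPM. The log2 change was 4.45 ± 0.31 (SE) in wild-type (adjusted p = 7.02e-18) and 4.80 ± 0.35 in knock-in (adjusted p = 3.6e-17), a 21.8-fold and a 27.8-fold difference. Tlr11, the partner of Tlr12 and no member of the set, was higher as well, by 3.38 ± 0.24 and 3.82 ± 0.27 on the log2 scale.

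Tlr9, the DNA sensor, was at 4.79 CPM in the lowest, 8.98 in the median and 31.3 in the highest library labelled young. With the old label it was at 27.6, 39.7 and 69.8 CPM. The single library out of order was wild-type young IFN-γ female 1, at 31.3 CPM, the other library high in B cell markers. The log2 change was 2.00 ± 0.12 in wild-type (adjusted p = 2.76e-21) and 2.36 ± 0.13 in knock-in (adjusted p = 9.58e-23).

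**Figure D2:**
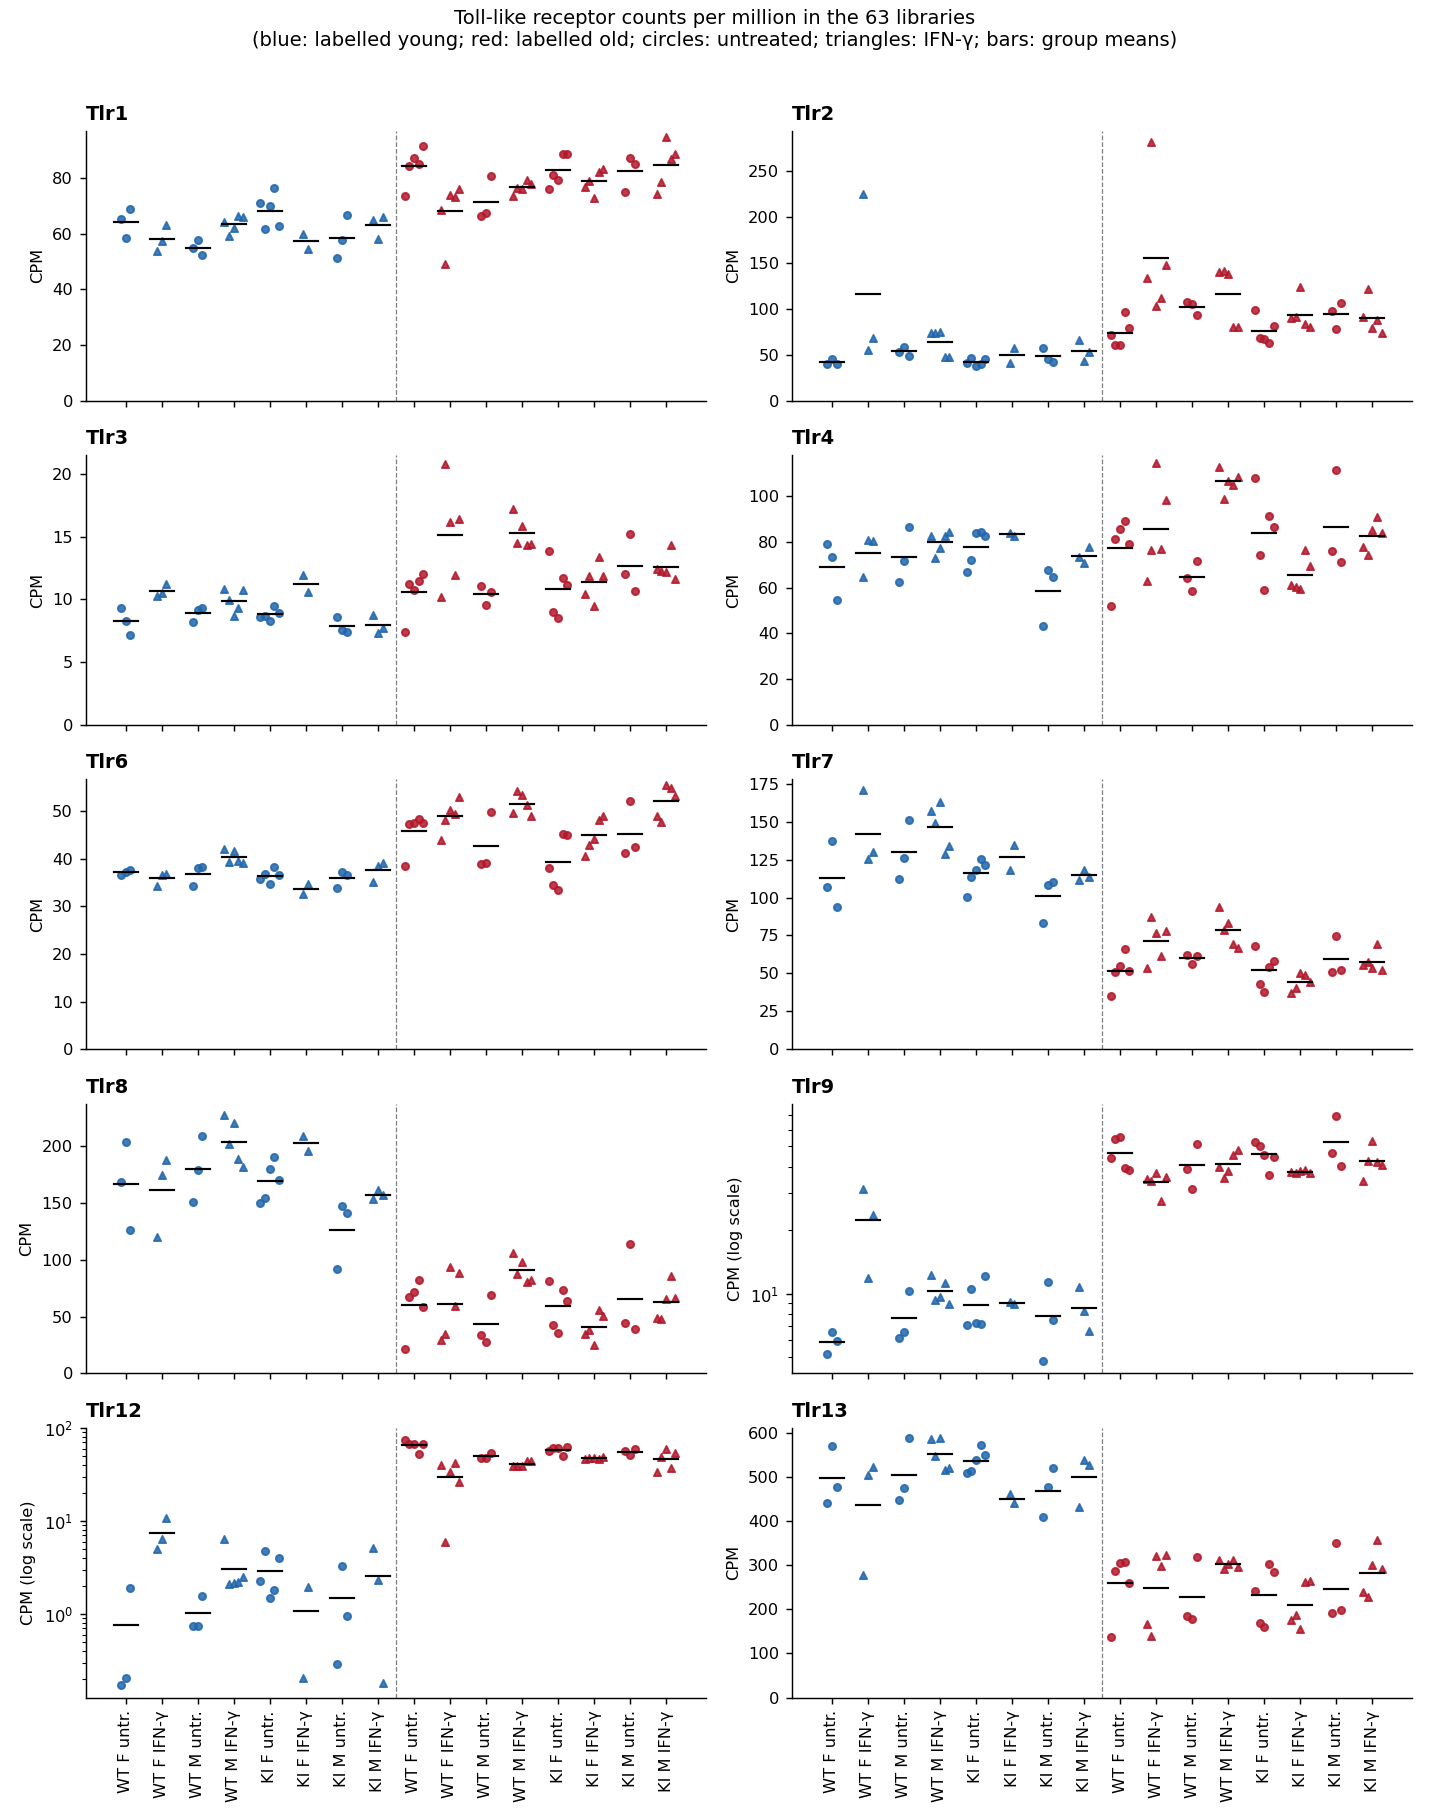
CPM of the 10 receptors in each library (points) by group on the x axis, with group means as bars; blue is labelled young, red labelled old, circles untreated and triangles IFN-γ, and the y axes of Tlr9 and Tlr12 are logarithmic. Tlr12 lay between 0.172 and 10.8 CPM with the young label and between 6.03 and 74.5 CPM with the old label.

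The 3 single-stranded RNA sensors were lower with the old label. Tlr8 was at 91.6 CPM in the lowest, 175 in the median and 227 in the highest library labelled young, and at 21.4, 61.4 and 114 CPM with the old label. Only 1 young-labelled library lay within the range of the old-labelled ones. Its log2 change was -1.52 ± 0.17 in wild-type (adjusted p = 2.04e-11) and -1.53 ± 0.17 in knock-in (adjusted p = 3.93e-11). Tlr7 was at 83.5, 122 and 171 CPM with the young label and at 35.1, 55.8 and 93.5 CPM with the old label. Tlr7 and Tlr8 lie next to each other on the X chromosome, and Tlr7 had log2 changes of -1.04 ± 0.08 and -1.11 ± 0.08 (adjusted p = 1.21e-16 and 3.11e-17). Tlr13, the receptor for bacterial ribosomal RNA, was at 279, 516 and 589 CPM with the young label and at 136, 274 and 358 CPM with the old label. Its young-labelled minimum was again wild-type young IFN-γ female 1, and the next lowest library labelled young had 409 CPM. Its log2 changes were -0.94 ± 0.12 and -1.01 ± 0.12 (adjusted p = 1.27e-09 and 3.52e-10).

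Among the surface receptors and Tlr3 the differences were smaller. Tlr2 was at 37.8 CPM in the lowest, 48.1 in the median and 224 in the highest library labelled young, and at 60.2, 90.6 and 281 CPM with the old label. Both maxima were the 2 libraries high in B cell markers. Its log2 change was 0.75 ± 0.14 in wild-type (adjusted p = 6.56e-06) and 0.87 ± 0.15 in knock-in (adjusted p = 1.3e-06). Tlr1 and Tlr6, which pair with Tlr2, were higher too, with log2 changes of 0.32 ± 0.05 and 0.33 ± 0.04 among wild-type libraries, then 0.41 ± 0.05 and 0.33 ± 0.04 among knock-in libraries. These neighbours are near-identical in part of their sequence, so the authors' counting could have split reads between them. Tlr3 was higher by 0.43 ± 0.07 and 0.42 ± 0.08. Exons of Tlr3 share 381 bases with the antisense gene Gm45542, and whether strand was used in counting is not given in the sources used here. Tlr4, the lipopolysaccharide receptor, had medians of 77.5 CPM with the young label and 78.6 CPM with the old label and was not called (log2 changes 0.15 ± 0.08, adjusted p = 0.113, and 0.12 ± 0.08, adjusted p = 0.229). Without the 4 libraries that stood apart, Tlr4 in wild-type had a log2 change of 0.18 with an adjusted p of 0.0475.

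**Figure D3:**
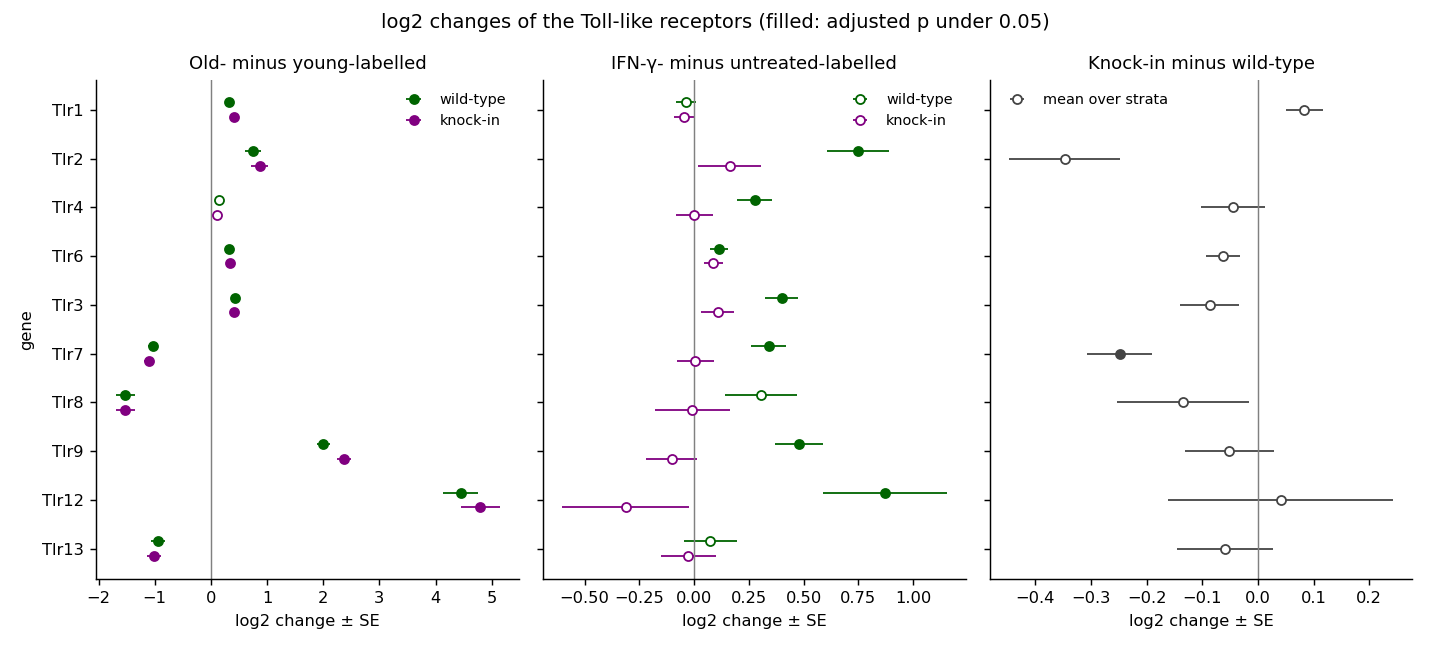
log2 change with its standard error (x axis) of each receptor (y axis) by the age label, the IFN-γ label and the genotype; green is wild-type, purple knock-in, and filled points have an adjusted p under 0.05. The 9 filled points of each genotype on the left run from -1.53 for Tlr8 to 4.80 for Tlr12.

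In the 8 strata of genotype, sex and treatment label taken one by one, the age label gave 68 calls out of 80 gene tests. Of all genes, 44.5% were called in wild-type untreated females, 37.0% in wild-type IFN-γ females, 36.8% and 39.4% in the males of these groups. For the knock-in the shares were 44.7% (untreated females), 49.3% (IFN-γ females), 32.1% (untreated males) and 35.5% (IFN-γ males). Tlr9 and Tlr12 were higher and Tlr7, Tlr8 and Tlr13 lower in 8 of 8 strata. Tlr1 and Tlr2 were higher in 7, all but wild-type IFN-γ females, and Tlr3 and Tlr6 in 6. That exception rested on the libraries that stood apart: without the 4, Tlr2 (1.08, adjusted p = 0.000324, against 0.42 with them) and Tlr1 (0.34, adjusted p = 0.0033, against 0.22) were called there too. Without wild-type young IFN-γ female 1 alone Tlr2 had 1.34 (adjusted p = 0.00012). Tlr6 was also called in wild-type untreated males without the 4 (0.25, adjusted p = 0.0216). Tlr4 was called in 2 strata, wild-type IFN-γ males (0.41 ± 0.14) and knock-in untreated males (0.56 ± 0.18). The call of Tlr3 was lost in 10 alternatives in wild-type untreated females and in 9 in knock-in untreated females, and that of Tlr8 in 6 in knock-in untreated males. All 10 genes had at least 1 library of an age label within the range of the other, where 6.62% of all genes had none. Without the 2 libraries high in B cell markers, Tlr9, Tlr12 and Tlr13 had no overlap, where 10.3% of all genes had none.

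The change with the age label was not called as different between the genotypes for any receptor. The interaction of genotype and age label gave 0 calls by edgeR among the 10 genes and 0 of 22147 over all genes (0%), with 1 receptor at an unadjusted p under 0.05 and 0 calls by DESeq2. The receptor with the lowest unadjusted p was Tlr9, whose increase was larger in knock-in by 0.37 ± 0.16 on the log2 scale (unadjusted p = 0.0251, adjusted p = 1).

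Cell type markers were counted by the age label too, where 62.0% of all genes were called in wild-type and 60.7% in knock-in. A share of a list near or below these is no result about the list. The 6 dendritic cell markers summed to 59.7 to 211 CPM with the old label and 3.22 to 43.8 CPM with the young label, and 4 of 6 were higher and 1 lower in each genotype. Among them Clec9a had a median of 88.4 CPM over all libraries and a maximum of 200 CPM. Ccr7 reached 26.8 CPM, Cd209a 5.30 CPM, Zbtb46 2.94 CPM, Xcr1 1.65 CPM and Flt3 0.983 CPM. Plasmacytoid dendritic cells are known for Tlr7 and Tlr9. Their 6 markers summed to 56.9 to 127 CPM with the old label and 40.7 to 172 CPM with the young label, and of 5 tested 2 were higher in wild-type and 3 in knock-in. Il3ra made up most of the sum, with a median of 90.5 CPM, while Pacsin1 reached 8.72 CPM and Siglech 0.628 CPM. Of 9 mesothelial and fibroblast markers, 6 were lower in wild-type and 7 in knock-in, with medians of -0.74 and -1.06 on the log2 scale. Of 8 macrophage markers, 4 and 5 were lower and 2 higher in each. The B cell markers had 2 and 1 of 12 lower, and none of 6 mast cell markers was called (adjusted p from 0.0658 to 0.858). T and NK cell markers had 2 of 10 higher in each genotype and 3 and 2 lower. Large peritoneal macrophage markers had 1 of 5 higher and 2 lower in each, and of 4 tested neutrophil markers 2 were higher and 2 lower in wild-type, against 1 of each for knock-in. The part of these cells in the levels of the receptors was not tested. In bulk RNA, fewer cells of a type and less RNA per cell cannot be told apart.

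Tlr12 also varied with Gbp2 among the libraries labelled young. The 5 libraries with the least Gbp2, at 13.5 to 47.0 CPM, were the 5 with the least Tlr12, at 0.172 to 0.288 CPM, and belonged to 4 groups with either treatment label. The other 22 libraries labelled young had at least 115 CPM of Gbp2 and 0.738 CPM of Tlr12. Over all 63 libraries Gbp2 was the gene most like Tlr12 among 10920 genes with a mean of at least 1 CPM (Spearman's rho 0.97), followed by Lap3 and Dnase1l3 (0.96 each). These correlations are descriptions, since the libraries fall into 2 sets by the age label.

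**Figure D4:**
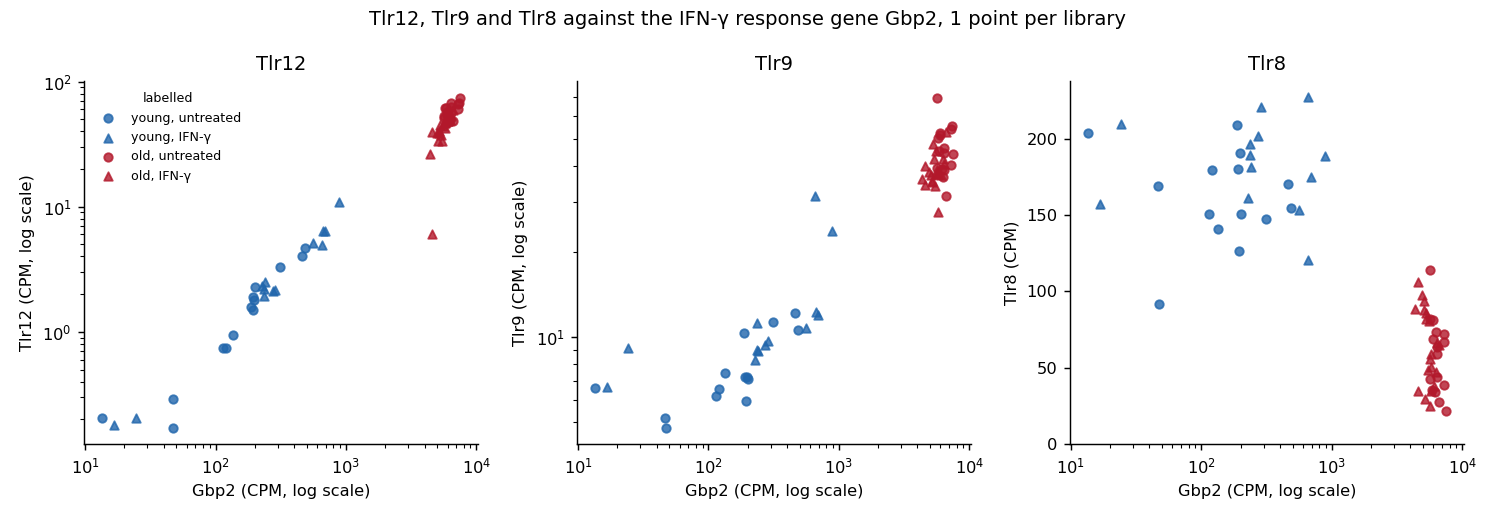
Tlr12, Tlr9 and Tlr8 (y axis, CPM, logarithmic for Tlr12 and Tlr9) against the IFN-γ response gene Gbp2 (x axis, CPM, logarithmic), 1 point per library; blue is labelled young, red labelled old, circles untreated, triangles IFN-γ. The 5 young-labelled libraries lowest in Gbp2 had 0.172 to 0.288 CPM of Tlr12.

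By the same measure, the genes most like the other receptors over the 63 libraries were these. Tlr9 was most like Itga1 (rho 0.94), Bcl9 (0.93) and Tlr12 (0.92). Tlr8 was most like Hgf (0.99), Pgm2l1 (0.98) and Fgd4 (0.97), and Tlr7 most like Pld1, Tcf12 and Casd1 (0.96 each). Tlr13 was most like Fam129a, Oxr1 and Ugt1a7c (0.96 each). Tlr2 was most like Orai2 (0.96), a calcium channel subunit, and the chemoattractant receptors Cmklr1 and Fpr1 (0.94 each). The nearest gene was Coro2a for Tlr1 (0.90), Kat2b for Tlr3 (0.88), Wrn for Tlr4 (0.89) and Ms4a6d for Tlr6 (0.91).

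By the IFN-γ label, 7 of the 10 receptors were called in wild-type, each higher, where 31.3% of all genes were called and 15.4% higher. In knock-in, 0 of 10 were called by edgeR or DESeq2 and 0 had an unadjusted p under 0.05, where 7.73% of all genes were called. The median log2 change was 0.32 in wild-type and -0.0034 in knock-in, against -0.01 over all genes in each. In wild-type, Tlr2 was higher by 0.75 ± 0.14 (adjusted p = 5.35e-05), Tlr9 by 0.48 ± 0.11 (adjusted p = 0.000712), Tlr3 by 0.40 ± 0.07 (adjusted p = 3.58e-05) and Tlr7 by 0.34 ± 0.08 (adjusted p = 0.000996). Tlr4 was higher by 0.28 ± 0.08 (adjusted p = 0.00659) and Tlr6 by 0.11 ± 0.04 (adjusted p = 0.0367, lost in 9 alternatives). Without the 4 libraries that stood apart the same 7 were called, and the value for Tlr2 was 0.45 (adjusted p = 0.000779).

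Tlr12 had a positive fitted change by this label in wild-type (0.87 ± 0.28, adjusted p = 0.0151), while its mean level over the groups was lower with the IFN-γ label, at 20.3 CPM against 29.3 CPM. The signs of these values differ. The fit averages the log2 changes of the strata, which were 3.30 ± 0.69 in wild-type females labelled young (from 0.757 to 7.41 CPM) and -1.15 ± 0.42 in wild-type females labelled old (from 65.6 to 29.6 CPM) among others. By library, wild-type young females had 0.172, 0.204 and 1.89 CPM untreated and 4.96, 6.43 and 10.8 CPM with the IFN-γ label. Among wild-type old females the untreated libraries held 53.1 to 74.5 CPM and the IFN-γ libraries 6.03 to 42.2 CPM. Neither pair of groups overlapped, and the share of all genes without overlap in groups this small was not counted. The call in old females was lost without the 4 libraries that stood apart (-0.86, adjusted p = 0.192), without wild-type old IFN-γ female 2 alone (-0.84, adjusted p = 0.218), and in 13 alternatives in all.

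In wild-type young females Tlr9 was at 5.19, 5.96 and 6.59 CPM untreated and at 11.9, 23.7 and 31.3 CPM with the IFN-γ label (log2 change 1.91 ± 0.26, adjusted p = 6.88e-07). In wild-type old females the untreated libraries held 38.8 to 55.4 CPM of it and the IFN-γ libraries 27.6 to 37.2 CPM, but the difference was not called (-0.45 ± 0.19, adjusted p = 0.0825). The change with the IFN-γ label differed between the age labels for Tlr9, by -0.87 ± 0.16 on the log2 scale (adjusted p = 0.0032, from 0.000121 to 0.197 over the alternatives), the single receptor called among 10 where 0.483% of all genes were called. For Tlr12 the difference was -1.55 ± 0.40 (adjusted p = 0.0608).

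By stratum, the IFN-γ label gave 10 calls out of 80 gene tests. In wild-type young females, where 16.5% of all genes were called, Tlr2, Tlr9 and Tlr12 were higher. In wild-type old females, where 20.0% were called, Tlr2 (1.08 ± 0.24), Tlr3 (0.52 ± 0.13) and Tlr7 (0.47 ± 0.14) were higher and Tlr1 (-0.31 ± 0.08) and Tlr12 lower. Over the alternatives that Tlr2 change ran from 0.79 to 1.22 (adjusted p from 8.35e-05 to 0.0513), and its call was lost in 1. In wild-type old males, where 2.70% were called, Tlr4 (0.72 ± 0.16) and Tlr3 (0.55 ± 0.15) were higher. Tlr4 was there at 58.5, 64.4 and 71.6 CPM untreated against 98.8 to 113 CPM in the 5 IFN-γ libraries, but lost its call without untreated male 1 (0.71, adjusted p = 0.111) or 2 (0.65, adjusted p = 0.225), and Tlr3 lost its call in 7 alternatives. No receptor was called in the other 5 strata: wild-type young males (0.447% of all genes called), knock-in young females (21.8%), old females (6.55%), young males (0.0722%) and old males (0.167%). These zeros are by edgeR, with 2, 2, 2, 0 and 1 receptors at an unadjusted p under 0.05. Without the 4 libraries that stood apart, the calls of Tlr1 (-0.18, adjusted p = 0.0985) and Tlr7 (0.41, adjusted p = 0.0524) in old females and of Tlr2 in young females (0.56, adjusted p = 0.183) were lost.

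B cell markers moved with the IFN-γ label. All 12 genes had counts in all 63 libraries. With this label 11 of 12 were higher and 1 lower in wild-type, and 11 higher and 0 lower in knock-in. Of all genes, 15.4% were higher in wild-type and 3.34% in knock-in. Cd22 had a median of 120 CPM over all libraries and Ighm 39.1 CPM, against at most 6.47 CPM for each other marker. T and NK cell markers moved likewise, 8 of 10 higher in wild-type and 5 of 10 in knock-in. Of 6 mast cell markers, 6 were higher in wild-type and 0 in knock-in. B cells are known to express Tlr7 and Tlr9. The part of these cells in the difference of Tlr2, Tlr7 and Tlr9 was not tested. The 2 libraries with the highest sums were left out of the fit singly, or together with the 2 low in Xist.

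**Figure D5:**
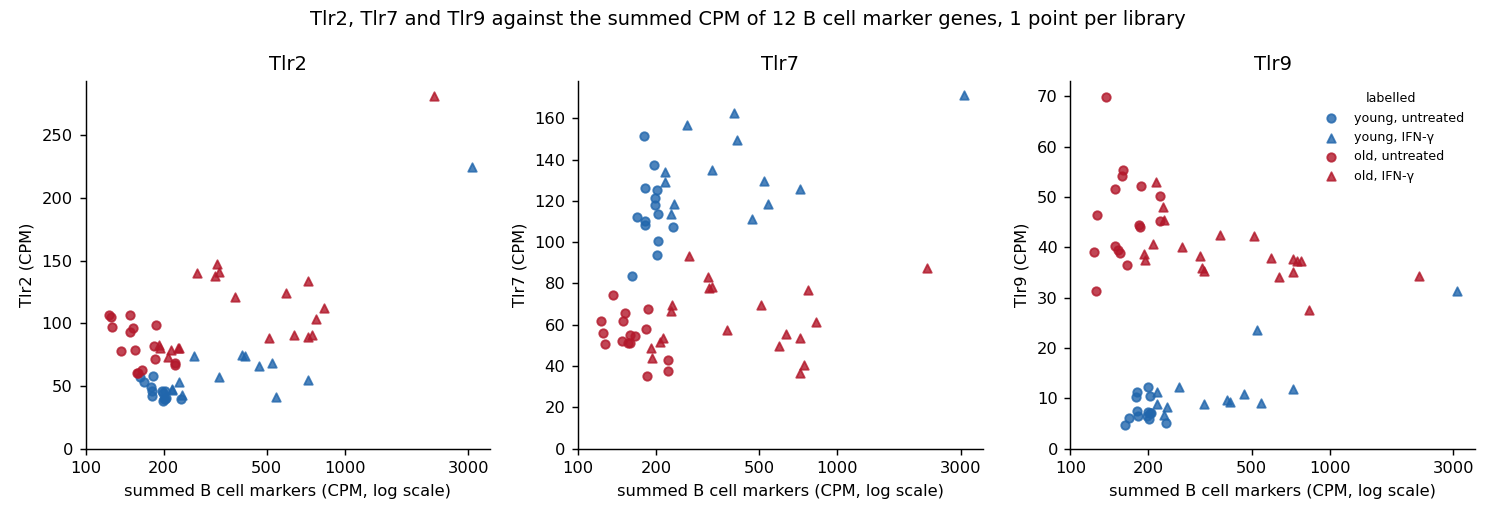
Tlr2, Tlr7 and Tlr9 (y axis, CPM from 0) against the summed CPM of 12 B cell markers (x axis, logarithmic), 1 point per library; blue is labelled young, red labelled old, circles untreated, triangles IFN-γ. The 2 libraries at 2222 and 3102 CPM of B cell markers had the highest Tlr2, at 281 and 224 CPM.

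Between the genotypes, averaged over the 8 strata, Tlr7 was lower in knock-in and was the single receptor called, where 1.15% of all genes were called. Its log2 change was -0.25 ± 0.06 (adjusted p = 0.0226), from 99.0 CPM in wild-type to 83.8 CPM in knock-in as means over the groups. Over all libraries the levels overlapped, at 35.1 to 171 CPM in wild-type and 36.8 to 135 CPM in knock-in. The call was lost without knock-in young IFN-γ female 1 (-0.24, adjusted p = 0.0785) or wild-type young untreated female 4 (-0.23, adjusted p = 0.0554), and the adjusted p ran from 0.00571 to 0.463 over the alternatives. By stratum, Tlr7 was lower in old IFN-γ females, by 0.70 on the log2 scale (from 71.3 to 44.0 CPM, adjusted p = 0.00244), and in old IFN-γ males (-0.44 ± 0.14, adjusted p = 0.0451, lost in 11 alternatives). The 5 wild-type old IFN-γ females had 53.5, 61.3, 76.7, 77.8 and 87.3 CPM of Tlr7, and the 5 knock-in ones had 36.8, 40.4, 44.1, 48.7 and 49.9 CPM. In that stratum 5.76% of all genes were called. Without the 4 libraries that stood apart the change was -0.67 (adjusted p = 0.0208).

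Young IFN-γ females gave 3 further calls, where 6.62% of all genes were called. Tlr12 was lower in knock-in by 2.78 on the log2 scale (adjusted p = 0.0205), at 0.203 and 1.95 CPM in the 2 knock-in libraries against 4.96, 6.43 and 10.8 CPM in the 3 wild-type ones. Tlr9 was lower by 1.30 (adjusted p = 0.00392), at 8.98 and 9.17 CPM against 11.9, 23.7 and 31.3 CPM. Tlr2 was lower by 1.23 (adjusted p = 0.0303), at 41.5 and 57.5 CPM against 55.1, 68.5 and 224 CPM. The Tlr2 value rested on wild-type female 1 (-0.31 without it, adjusted p = 0.62), without which Tlr9 had -0.96 (adjusted p = 0.0556), while without the 4 libraries that stood apart Tlr9 (-0.99, adjusted p = 0.0449) and Tlr12 (-3.02, adjusted p = 0.0165) were still called. With knock-in female 1 left out, a single knock-in library remained, assumed to vary like the other groups, and Tlr12 was not called (-1.92, adjusted p = 0.344), nor were Tlr9 (-1.30, adjusted p = 0.107) and Tlr2 (adjusted p = 0.343). Without knock-in female 2, Tlr9 had -1.29 (adjusted p = 0.0618) and Tlr2 -1.49 (adjusted p = 0.104). Gbp2 was at 24.3 and 235 CPM in the 2 knock-in libraries and at 655, 693 and 883 CPM in the 3 wild-type ones, and its part in the Tlr12 difference was not tested. Tlr3 was lower in knock-in old IFN-γ females (-0.41 ± 0.13, adjusted p = 0.0427), a call lost in 10 alternatives, among them without the 4 libraries (-0.37, adjusted p = 0.121). Over the 8 strata 6 of 80 gene tests passed, and 6.55% of all genes were called in old IFN-γ males. In the strata with no receptor called, the share of all genes was 0.452% for young untreated females, 0.0181% for old untreated females, 0% and 0.149% for young untreated and IFN-γ males, and 0.00452% for old untreated males. In this order 2, 1, 1, 2 and 1 receptors had an unadjusted p under 0.05.

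The change with the IFN-γ label, knock-in minus wild-type, gave a negative call for 3 receptors, where 11.7% of all genes were called and 5.49% in this direction. These were Tlr9 (-0.58 ± 0.16, adjusted p = 0.0136), Tlr2 (-0.58 ± 0.20, adjusted p = 0.0482) and Tlr12 (-1.18 ± 0.41, adjusted p = 0.0479). The Tlr12 value averages strata that went different ways. Its change in young females was 3.30 in wild-type and -1.41 in knock-in, which had 2 IFN-γ libraries there. In old females it was -1.15 in wild-type, and -0.354 to -0.268 over the alternatives in knock-in, where the difference was thus not negative. Over the 10 receptors the difference ran from -1.18 to -0.0087, with a median of -0.30 against -0.01 over all genes. With a replicate block of the number alone, Tlr1 (0.017) and Tlr6 (0.0002) had a positive value. The share of all genes with a negative difference was not counted. Markers of other cells had lower values in the same comparison: 7 of 12 B cell markers (median -1.73), 5 of 6 mast cell markers (median -2.18), 4 of 10 T and NK cell markers (median -1.50), 3 of 6 dendritic cell markers (median -0.73) and 2 of 5 large peritoneal macrophage markers (median -1.07) were called lower. Their part in the receptor differences was not tested. The call of Tlr2 was lost in 46 alternatives and that of Tlr12 in 41, most of them with a single library left out, while Tlr9 lost its call in 1. Tlr2 had -0.27 (adjusted p = 0.207) without the 4 libraries that stood apart. No receptor was called between females and males by edgeR, where 13.5% of all genes were called. Tlr6 came closest, with a log2 change (female minus male) of -0.08 ± 0.03 (adjusted p = 0.0545), the single receptor at an unadjusted p under 0.05, and DESeq2 called it (adjusted p = 0.046).

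Genes that act with the receptors were read from lists by role. By the age label in wild-type each list's count stands beside 62.0% of all genes called, 28.3% higher and 33.7% lower, and a share near these is no result about the list. Of 14 tested co-receptors, chaperones and trafficking proteins, 7 were higher and 6 lower with the old label in wild-type. Unc93b1, the chaperone of the endosomal receptors, was higher by 0.70 on the log2 scale (adjusted p = 1.35e-18), at 754 to 1134 CPM against 464 to 793 CPM. Hsp90b1, which folds Toll-like receptors, was higher by 0.87 and Cd180, a relative of Tlr4, by 1.34. Slc15a4, an endosomal transporter, was lower (-0.59, adjusted p = 2.03e-17). The list's median was 0.01.

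Of 7 adaptors, 3 were higher and 1 lower with the old label in wild-type, a share near the 62.0% of all genes. Myd88 was higher by 1.17 (adjusted p = 4.35e-30), at 79.6 to 118 CPM with the old label against 35.0 to 50.2 CPM with the young label. These levels did not overlap, as for 6.62% of all genes. Scimp was higher by 3.03 and Ticam2, the bridge between Tlr4 and Ticam1, by 0.95, while Tirap was lower (-0.09, adjusted p = 0.0399). Of 9 transcription factors, 7 were higher and 1 lower, with a median of 0.71. Irf7 was higher by 2.87, Irf8 by 1.76, Irf5 by 0.71 and Nfkb1 by 0.65. Of 14 tested target genes, 10 were higher and 3 lower, with a median of 1.11. Ccl5 was higher by 4.18, Tnf by 3.26, Il12b by 3.20 and Cd40 by 3.05. Tnf was at 53.1 to 167 CPM with the old label and 5.86 to 19.5 CPM with the young label. Among 22 kinases and ubiquitin ligases, 10 were higher and 6 lower where 62.0% of all genes were called, with Peli1 (0.71), Tbk1 (0.58) and Ube2n (0.41) higher and Ikbkb (-0.30) lower. Among 15 inhibitors of signalling, 6 were higher and 7 lower, with Socs1 (4.57), Tnip3 (1.66) and Nfkbia (1.25) higher and Dusp1 (-1.24) lower. Several of these, such as Socs1, Irf8, Ccl5 and Cd40, are also known as IFN-γ response genes.

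Under the IFN-γ label 31.3% of all genes were called among wild-type libraries, 15.4% higher, and the counts of the lists stand beside these shares. Of 14 target genes, 8 were higher and 2 lower, among the higher ones Il10 (3.20), Il12a (1.89), Il1b (1.26) and Il6 (1.14). Il10, Il12a and Il6 were near the floor, with medians of 0.0423 to 0.261 CPM by age label. Among libraries labelled old, Il10 had a median of 0.227 CPM and a maximum of 9.18 CPM, and Il1b 4.08 and 32.6 CPM. Changes of list genes are given with all 63 libraries only, so the part of the 4 libraries that stood apart is not shown. Of the co-receptors, Cd14 was higher (0.44, adjusted p = 0.0296), and Slc15a3 (-0.29) and Slc15a4 (-0.22) were lower. Of the adaptors, Sarm1 (0.95) and Tirap (0.11) were higher and Ticam1 (-0.28) and Ticam2 (-0.17) lower. Sarm1 was near the floor, with medians of 0.0906 CPM under the young label and 0.107 CPM under the old label. The kinases and ubiquitin ligases had 5 higher, among them Peli1 (0.23), Traf3 (0.23) and Traf6 (0.20), and 4 lower, among them Tab1 (-0.23). The inhibitors had 6 higher, among them Il1rl1 (1.92), Nfkbiz (0.61) and Cyld (0.27), and 2 lower, among them Atf3 (-0.48). The transcription factors had 3 higher, among them Rel (0.29) and Nfkb1 (0.15), and 3 lower, among them Irf8 (-0.26) and Irf5 (-0.16). In knock-in, where 7.73% of all genes were called, 1 target gene and 1 kinase or ligase were higher and 1 co-receptor lower, and no adaptor, inhibitor or transcription factor was called.

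Between the genotypes, where 1.15% of all genes were called, 1 gene of these lists was called. Irak4, the kinase that Myd88 recruits first, was lower in knock-in by 0.46 on the log2 scale (SE 0.03, adjusted p = 1.52e-19), with group means of 34.6 to 46.9 CPM in knock-in and 50.7 to 62.0 CPM in wild-type. The group means did not overlap between the genotypes, and the share of all genes for which this holds was not counted. Irak4 lies on the same chromosome as Lrrk2, the targeted gene, in the reference annotation. Whether its difference goes with the R1441C change or with other sequence linked to the targeted gene was not tested. With the exception of Tlr7, no receptor of the 10 was called between the genotypes in the mean over strata.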

How the data were processed

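Polyadenylated RNA of 63 libraries was sequenced from a directional paired-end kit, per the labels' protocols. The authors deposited raw read counts per gene and FPKM values; STAR 2.7.9a, DESeq2 1.40.2 and GRCm39 are named in the submitters' processing notes, while for the counting tool, annotation and use of strand the entry is: not given in the sources used here. Genes were tested with edgeR 4.0.16 (R 4.3.3): TMM scaling, filterByExpr, a robust quasi-likelihood fit with 1 coefficient per group over all 63 libraries, and Benjamini-Hochberg adjustment over 22147 genes, called at 0.05. CPM are counts over TMM-scaled library sizes, and a log2 change is old minus young, IFN-γ minus untreated, knock-in minus wild-type or female minus male, with its standard error. FPKM served only to compare levels between genes. Symbols and promoters came from GRCm38.p6 tables, and 52073 identifiers matched a symbol.

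All 10 receptors were named, with up to 4 called genes of smallest p per list and comparison, and the 3 genes with the highest Spearman correlation to each receptor. Members and lists were chosen with earlier results of these data known. Alternatives were DESeq2 1.42.0, its size factors, no filter, a replicate block, each library or the 4 libraries that stood apart left out and, added after seeing the data, libraries of a group closer to each other than any pair between groups joined, which left 47. Replicate numbers were not taken to pair the samples. The fit was tested on simulated counts.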

Additional observations from a re-analysis of the deposited data

Results flagged for a closer look

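In groups of 5 libraries, 9 of 80 gene and group combinations had a library far from the others by Dixon's criterion, which chance alone reaches in about 1 in 20. All genes were read in the same libraries, so the combinations are not independent and no excess over that rate can be read from the count. Wild-type old untreated female 1 was low for 4 receptors: 7.42 CPM of Tlr3 against 10.7 to 12.0 CPM in the other libraries of its group, 52.1 CPM of Tlr4 against 79.2 to 89.2, 38.4 CPM of Tlr6 against 47.4 to 48.4, and 136 CPM of Tlr13 against 261 to 307. Wild-type old IFN-γ female 2, high in B cell markers, had 281 CPM of Tlr2 against 103 to 147 CPM and 48.9 CPM of Tlr1 against 68.4 to 75.8 CPM. Knock-in old IFN-γ female 3 had 124 CPM of Tlr2 against 80.4 to 90.6 CPM. Knock-in old IFN-γ male 4 had 14.3 CPM of Tlr3 against 11.6 to 12.4 CPM, and wild-type young IFN-γ male 1 had 6.34 CPM of Tlr12 against 2.13 to 2.52 CPM.

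By tests of the difference itself, the change with the IFN-γ label differed between the genotypes (knock-in minus wild-type, log2) by -0.58 for Tlr2, -0.58 for Tlr9 and -1.18 for Tlr12. Between the age labels it differed for Tlr9, by -0.87 (old minus young).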

How the results depend on the processing

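No change of a receptor that was called reversed its sign under any alternative. With libraries of a group that lay close together joined, 4 receptors were called by the IFN-γ label in wild-type, 4 over its strata, and 0 in the mean over genotypes, its strata, its interaction with the IFN-γ label and the interaction of both labels, where fewer libraries entered. The DESeq2 Wald test called 2 receptors for the interaction of both labels, 2 between genotypes, 5 for genotype by IFN-γ label and 1 by sex, and DESeq2's size factors gave 5 for genotype by IFN-γ label. Without the filter that last count was 1 and the genotype strata gave 3. Without the 4 libraries that stood apart, 1 receptor was called by sex. The cause of these moves was not tested.

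Leaving out each library in turn gave 9 to 10 receptors by the age label in wild-type, 9 in knock-in and 66 to 69 over strata; 6 to 8 by the IFN-γ label in wild-type, 0 in knock-in and 7 to 11 over strata; 0 to 2 between genotypes and 3 to 8 over strata; 1 to 5 for genotype by IFN-γ label, 0 for genotype by age label, 1 to 2 for age by IFN-γ label and 0 to 1 by sex.

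For a check of pairing, the mean of its group was subtracted from each library's log2 CPM, gene by gene. These deviations correlated above 0.1 between libraries of the same number in 16 of 26 pairs across treatment, 19 of 26 across age and 12 of 26 across genotype (medians 0.16, 0.36 and 0.03), against 35 of 97, 40 of 97 and 42 of 103 pairs of different numbers (medians -0.08, -0.10 and -0.04). Same-numbered libraries thus deviated more alike across treatment and age, but not in every pair, and the numbers were not taken to pair the samples. With a replicate block of the number alone, 325 of 330 receptor results kept their side of the threshold, called or not, and a replicate block nested in genotype, sex and age label gave 5 receptors by the IFN-γ label in wild-type. Over all genes, 255 were called between genotypes, 85 without the filter, 422 without the 4 libraries and 10 with close libraries joined. The IFN-γ label in knock-in gave 1713 genes, 2993 without the 4 libraries and 708 joined, and in wild-type 6935 and 3889 joined. Without the filter, genotype by IFN-γ label gave 1663 genes in place of 2599, sex 1889 in place of 2988 and age by IFN-γ label 43 in place of 107, or 22 with the replicate block nested in genotype, sex and treatment label. The largest drop came with close libraries joined: genotype by IFN-γ label then gave 64 genes, sex 621 and age by IFN-γ label 3, of 22991 tested. Depth limits the low values of Tlr12, which had 17 counts in the lowest library.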

Other observations

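Of the mouse Toll-like receptors outside the set, Tlr11 had 0.121 to 2.43 CPM under the young label and 2.23 to 13.2 CPM under the old label. Tlr5, the flagellin receptor, was lower with the old label, at 0.041 to 0.468 CPM against 0.325 to 1.39 CPM, by 1.75 ± 0.21 on the log2 scale in wild-type and 1.39 ± 0.20 in knock-in. Among libraries labelled young, wild-type young IFN-γ female 5 had the highest Gbp2 (883 CPM) and the highest Tlr12 (10.8 CPM).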
